A study of Saccharomyces cerevisiae with 26 samples.

Results

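The spindle checkpoint genes MAD1, MAD2, MAD3, BUB1, BUB2, BUB3, MPS1 and IPL1 of budding yeast were followed through sporulation and through exposure to the microtubule drug benomyl or to cold. The genes were chosen by symbol, as the probe sets whose single annotated gene was 1 of these 8. They are 8 of 5656 genes with a probe set of their own. Each had 1 of the array's 9335 probe sets, and all 8 passed the filter on dim probe sets that left 7876 for testing. Their locus tags are YGL086W for MAD1, YJL030W for MAD2, YJL013C for MAD3, YGR188C for BUB1, YMR055C for BUB2, YOR026W for BUB3, YDL028C for MPS1 and YPL209C for IPL1.

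The spindle checkpoint delays anaphase while any kinetochore lacks a proper attachment to microtubules. IPL1 encodes the Aurora B kinase, which releases attachments that are not under tension. MPS1 encodes a kinase that recruits the checkpoint proteins to kinetochores and also acts in spindle pole body duplication, and BUB1 encodes a kinase that binds there. The products of MAD2, MAD3 and BUB3 bind Cdc20, the activator of the anaphase-promoting complex (APC/C), and hold the complex inactive, with MAD1 as the kinetochore platform for MAD2. BUB2 works apart from these: with BFA1 it restrains the GTPase Tem1 and so the mitotic exit network.

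The series held 26 Affymetrix YG_S98 arrays, 2 for each of 13 groups. Cells were sampled in rich glucose medium (YPD), in acetate medium (YPA), and 4 h after sporulation was induced. For the other groups of the first set, cells that had sporulated for 4 h were filtered and resuspended. They received medium with no DMSO stated (sampled at 1 h), medium with 0.4% DMSO, the solvent, or benomyl from a 30 mg/ml stock in DMSO (both sampled at 1 h and 4 h). The 10 arrays of cold-treated cells and their controls, used here without instrument files, are called the second set. It held cells at 4 h of sporulation, cells filtered into medium with no DMSO stated, and cells moved to pre-chilled medium with DMSO at 10 °C, the filtered and chilled cells at 1 h and 4 h. All times of 1 h and 4 h below count from filtration. Sporulation medium held 0.3% potassium acetate, although the label of the first set's 4 h group does not state it, and growth before sporulation was at 30 °C. The labels name no strain, genotype or ploidy, do not say whether replicate arrays came from separate cultures, and give the second set's filtered cells no temperature. The p-values therefore cover array-to-array spread, which may be technical. Because the chilled medium held DMSO and its controls had none stated, temperature and DMSO cannot be told apart in the cold comparisons.

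Values are log2 signals after quantile normalization, and a difference is a log2 fold change ± the standard error of a limma model fitted to all arrays (n = 2 arrays in each group). A gene is said to rise or fall only where its Benjamini-Hochberg adjusted p over all probe sets tested was under 0.05, and such a gene is called. Where 1 array is left out, the lone array of its group is assumed to vary like the other groups. Calls and p-values from such fits do not measure that group's own spread. Across all probe sets the 2 arrays of a group correlated at 0.984 to 0.995, except at 0.942 for benomyl at 1 h and 0.963 for the second set's filtered cells at 1 h. The state named on the labels was checked with stage genes. In the first set 6 of 6 early meiotic genes rose from acetate to 4 h of sporulation (median 4.04), beside 28.5% of all probe sets. From 1 h to 4 h in DMSO 12 of 12 middle sporulation genes rose (median 2.21), beside 17.8%. In the second set's filtered cells 10 of the 12 rose over that interval (median 2.78), beside 5.47%. The sets differed in stage genes: in filtered cells at 1 h 11 of the 12 were lower in the second set than in the first (median -2.05), beside 920 of 7876 probe sets. Each array averages a whole culture, so less RNA in each cell and fewer cells with the RNA cannot be told apart. Levels are compared only within a gene, because probes differ in brightness.

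The 8 genes did not move as a block. MPS1 spanned the widest range of group means, 3.26 on the log2 scale or 9.56-fold, from acetate medium to DMSO at 4 h. IPL1 spanned 2.45 (5.47-fold), BUB3 2.39 (5.23-fold) and MAD3 1.89 (3.70-fold). BUB2 spanned 1.09 (2.13-fold), MAD2 1.06 (2.09-fold), MAD1 0.75 (1.68-fold) and BUB1 0.73 (1.66-fold). A test of any difference among the 13 groups (limma F test) passed for 7 of the 8 genes, beside 94.5% of all probe sets, and did not pass for MAD1 (adjusted p = 0.139). Some values lie near the dim end of the array: 7 of 26 arrays for MAD3, 6 for MAD1, 2 for MPS1 and 1 each for BUB1 and IPL1 were at or below the filter's level of 5.44.

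**Figure D1:**
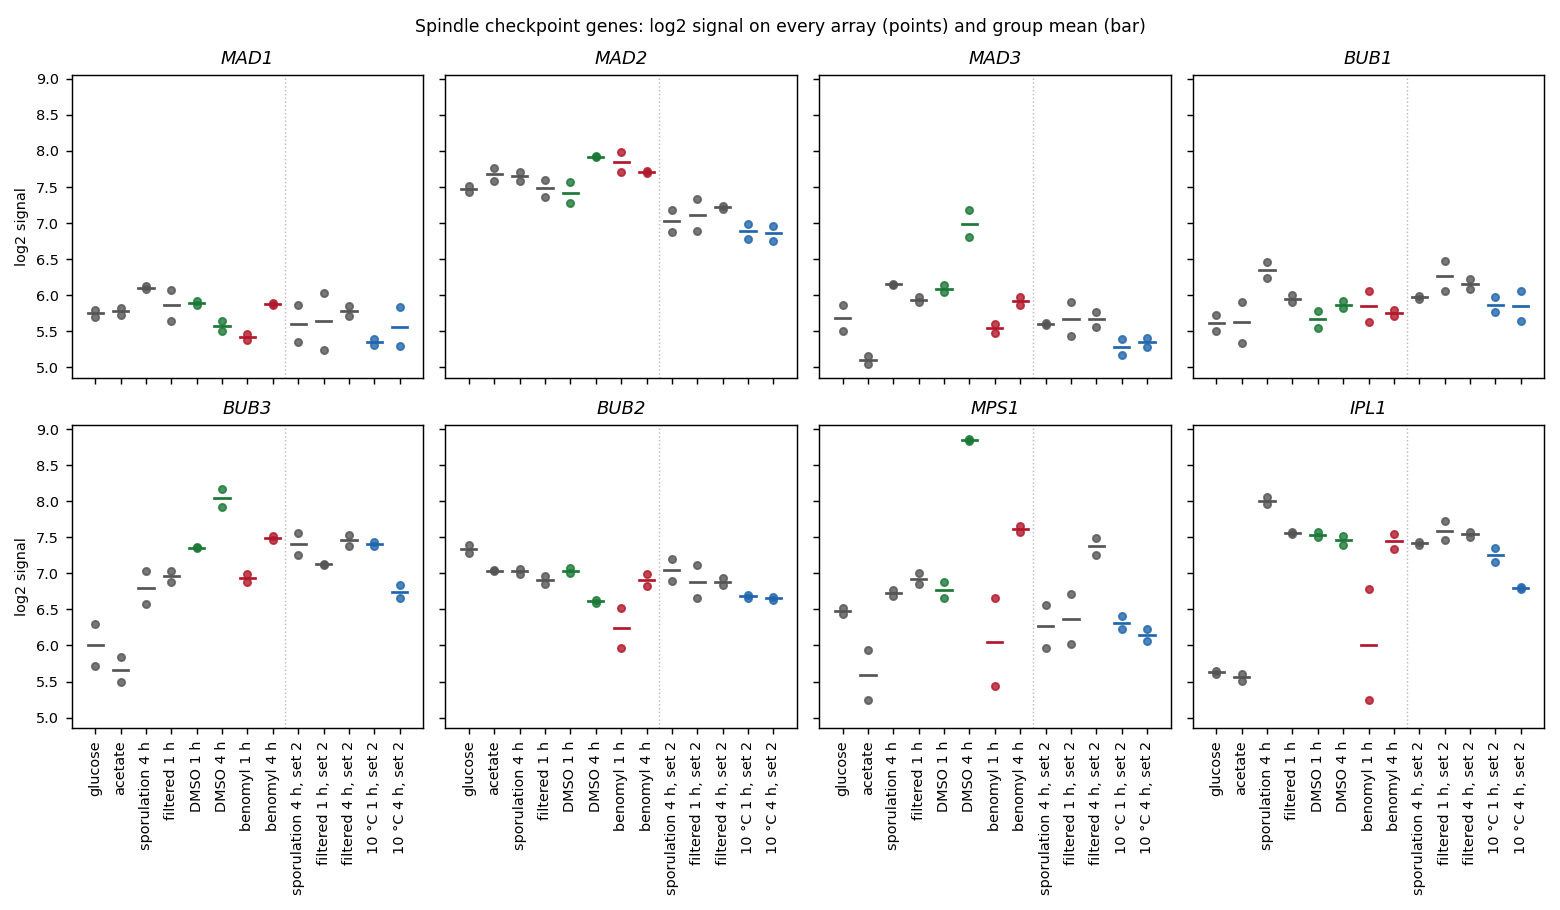
Log2 signal of the 8 checkpoint genes on every array, 1 panel per gene. The x axis gives the 13 groups, points are arrays, bars are group means of 2 arrays, and the dotted line separates the first from the second set. DMSO is green, benomyl red and 10 °C blue. MPS1 and MAD3 peak in DMSO at 4 h, and the 2 benomyl arrays at 1 h lie far apart for IPL1 and MPS1.

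The first question was how the genes stood before meiosis and after 4 h of it. From acetate medium to 4 h of sporulation 5 of the 8 genes rose, IPL1 most, and none fell. Over all probe sets 58.1% were called, and 28.5% were called higher. The members' median difference was 0.89, beside -0.04 for all probe sets.

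Among the kinases, IPL1 read 5.51 and 5.60 on the acetate arrays and 8.06 and 7.96 at 4 h of sporulation. The pairs did not overlap, and the difference was 2.45 ± 0.28, 5.47-fold (adjusted p = 7.07e-07). In glucose medium IPL1 read 5.61 and 5.65, so both vegetative media were low and every sporulating group outside benomyl at 1 h lay above them. MPS1 read 5.25 and 5.94 in acetate and 6.76 and 6.69 at 4 h of sporulation, a rise of 1.13 ± 0.30 (adjusted p = 0.00365), with 1.52 on the first scan day and 0.75 on the second. That call was lost without replicate 1 of acetate, where the difference was 0.79 (adjusted p = 0.074). BUB1 rose from 5.91 and 5.34 to 6.23 and 6.46, a difference of 0.72 ± 0.20 (adjusted p = 0.00442), with 0.32 and 1.12 on the 2 scan days. Without replicate 2 of acetate it was 0.43 (adjusted p = 0.112).

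Of the genes for the Cdc20-binding proteins, BUB3 read 5.83 and 5.49 in acetate and 7.03 and 6.58 at 4 h of sporulation (1.14 ± 0.18, adjusted p = 3.12e-05). MAD3 went from 5.05 and 5.15 to 6.15 and 6.16 (1.05 ± 0.16, adjusted p = 2.53e-05). Both groups of arrays were well apart for each gene. MAD2, which binds Cdc20 beside them, read 7.77 and 7.58 in acetate and 7.59 and 7.71 at 4 h (-0.02 ± 0.16, adjusted p = 0.908). MAD1 differed by 0.32 ± 0.22 (adjusted p = 0.22), and BUB2, of the mitotic exit branch, by -0.01 ± 0.16 (adjusted p = 0.959). Between the media themselves 2 of 8 genes were lower in acetate than in glucose, beside 33.3% of all probe sets called and 17.7% called lower. MAD3 differed by -0.58 ± 0.16 (adjusted p = 0.0112) and MPS1 by -0.89 ± 0.30 (adjusted p = 0.0302). The other genes ran from -0.35 for BUB3 to 0.20 for MAD2. The MAD3 call was lost without replicate 1 of acetate (-0.53) or replicate 2 of glucose (-0.40). The MPS1 call was lost without replicate 1 of acetate (-0.54) and without replicate 1 (-0.93) or replicate 2 (-0.84) of glucose. The glucose arrays had a scan day that no other group shared, so medium and scan day cannot be told apart.

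The handling steps were examined next. Filtration and the following hour, compared with 4 h of sporulation, gave 0 called genes in limma in the first set (3.09% of all probe sets called) and 0 in the second (2.37%), with 0 of 8 at an unadjusted p under 0.05 in each set. The members' differences ran from -0.45 for IPL1 to 0.20 for MPS1 in the first set, and from -0.27 for BUB3 to 0.29 for BUB1 in the second. DMSO at 1 h against filtered cells without it also gave 0 called (0.571%), and 1 at an unadjusted p under 0.05, BUB3 with 0.39 ± 0.18 (adjusted p = 0.558), while the lowest value was -0.29 for BUB1. In other settings of the same fit, the filtration step of the first set called IPL1 lower with array weights, with only the groups compared, and without the arrays of benomyl at 1 h and the second set's filtered cells at 1 h.

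The undrugged course was followed from 1 h to 4 h, and the labels do not say how far the meiotic divisions had gone. In DMSO 4 of the 8 genes rose and 1 fell, beside 43.6% of all probe sets called, 17.8% higher and 25.8% lower. MPS1 rose more than 4-fold, while the other kinases, IPL1 and BUB1, were not called. The median of all probe sets in this comparison was -0.15, and the members' median was 0.35.

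MPS1 read 6.88 and 6.66 at 1 h in DMSO and 8.83 and 8.87 at 4 h. The later arrays were higher than those of any other group in the series, and the difference was 2.08 ± 0.30, 4.23-fold (adjusted p = 2.02e-05). It was 1.95 among arrays of the first scan day and 2.21 among those of the second. IPL1 stayed between 7.39 and 7.57 on these 4 arrays (-0.08 ± 0.28, adjusted p = 0.855). BUB1 differed by 0.20 ± 0.20 (adjusted p = 0.433).

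MAD3 read 6.14 and 6.05 at 1 h and 6.80 and 7.18 at 4 h, a rise of 0.90 ± 0.16 (adjusted p = 0.000232), with 0.67 on the first scan day and 1.13 on the second. BUB3 read 7.36 and 7.35 and then 7.93 and 8.17, a rise of 0.70 ± 0.18 (adjusted p = 0.00445). For MAD3 and BUB3, as for MPS1, DMSO at 4 h held both of the highest arrays of the series. MAD2 rose by 0.50 ± 0.16 (adjusted p = 0.0176), from 7.57 and 7.28 to 7.91 and 7.93. BUB2 fell from 7.07 and 7.01 to 6.59 and 6.63 (-0.43 ± 0.16, adjusted p = 0.0409), and MAD1 differed by -0.32 ± 0.22 (adjusted p = 0.267). The calls of MPS1 and MAD3 held in all settings run. Without replicate 2 of DMSO at 4 h the BUB3 call was lost (0.57). The MAD2 call was lost without replicate 1 (0.51) or replicate 2 (0.49) of DMSO at 4 h and without replicate 2 at 1 h (0.35). The BUB2 call was lost with any of the 4 arrays left out, at values from -0.46 to -0.40.

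The second set gives the same interval without DMSO stated. There 1 of 8 genes rose, MPS1, beside 8.1% of all probe sets called and 5.47% called higher. MPS1 read 6.02 and 6.71 at 1 h and 7.26 and 7.49 at 4 h (1.01 ± 0.30, adjusted p = 0.044). The pairs did not overlap, although the call was lost without replicate 1 of the 1 h group (0.67) and without replicate 1 (1.13) or replicate 2 (0.90) of the 4 h group. MAD3 read 5.44 and 5.90 and then 5.77 and 5.56, with overlap (-0.00 ± 0.16, adjusted p = 0.995). The others ran from -0.10 for BUB1 to 0.33 for BUB3. The difference between the courses passed for 1 of 8 genes, beside 14.1% of all probe sets: MAD3 rose by 0.90 ± 0.23 more in DMSO than in the second set (adjusted p = 0.0143). For MPS1 that difference was 1.07 ± 0.43 (adjusted p = 0.106), and without replicate 1 of the second set's 1 h group 1.41 (adjusted p = 0.0473). It was also called with the values as deposited (1.30, adjusted p = 0.0446), with median centring (1.29, adjusted p = 0.0403), with array weights (adjusted p = 0.0477) and with only the groups compared (adjusted p = 0.0497), and not in the other 13 of 18 settings. The MAD3 difference was no longer called without replicate 2 of DMSO at 4 h (0.71), of DMSO at 1 h (0.86) or of the second set's 4 h group (0.80), or with only the groups compared. DMSO and any other difference between the array sets, such as that in middle sporulation genes of filtered cells at 1 h, cannot be told apart here.

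**Figure D2:**
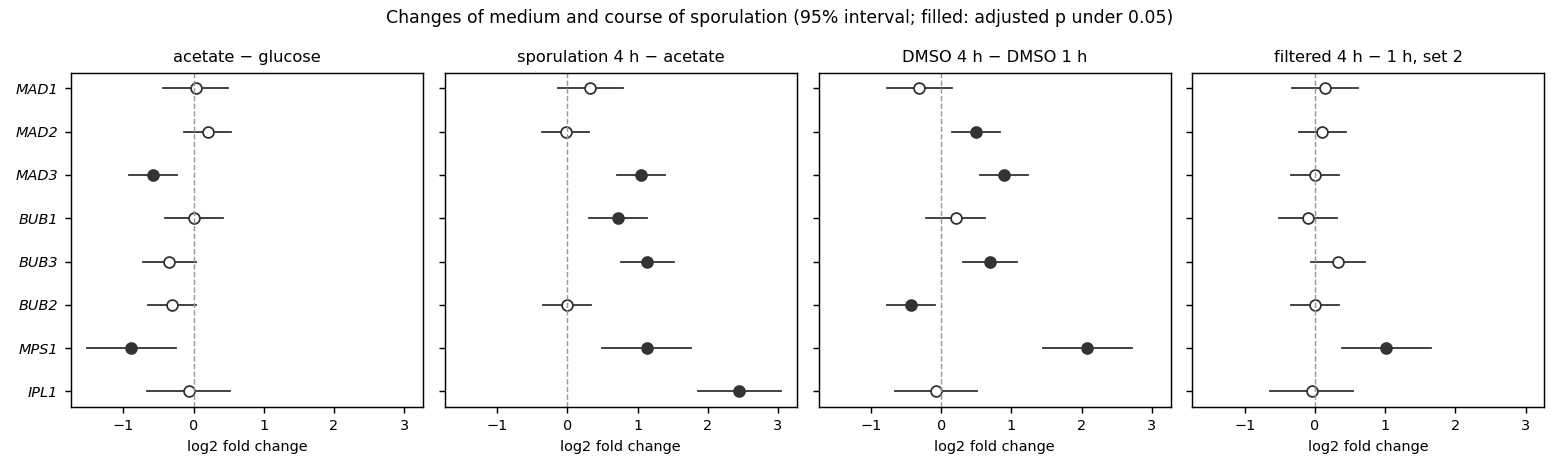
Log2 fold changes of the 8 genes for acetate against glucose medium, 4 h of sporulation against acetate, DMSO at 4 h against 1 h, and the second set's filtered cells at 4 h against 1 h. Points are model estimates, lines 95% intervals, and filled points have an adjusted p under 0.05. IPL1 changes most on entry into sporulation (2.45) and MPS1 from 1 h to 4 h in DMSO (2.08).

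Benomyl was compared with DMSO at each time. After 1 h, 3 of the 8 genes were lower and 1 was higher, beside 52.3% of all probe sets called, 26.8% as lower and 25.6% as higher. IPL1 and BUB2 fell most, MAD3 fell less, and MAD2 rose. After 4 h, 3 genes were lower and none higher, beside 32.6% of all probe sets called and 15.9% called lower. These were MPS1, MAD3 and BUB3. The DMSO arrays of each time are the same ones that gave the course above.

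IPL1 read 7.50 and 7.57 in DMSO at 1 h and 6.78 and 5.24 in benomyl. Both benomyl arrays lay below both controls, but they lay farther from each other than the higher of them lay from the controls. The fitted difference was -1.52 ± 0.28, 2.87-fold lower (adjusted p = 0.000181). It was -0.72 on the first scan day and -2.33 on the second. Without replicate 2 of benomyl it was -0.75, and without replicate 1 it was -2.30. Fitted on the 4 arrays alone the call was lost (adjusted p = 0.101). At 4 h IPL1 read 7.34 and 7.55 in benomyl and 7.39 and 7.52 in DMSO, overlapping levels (-0.01 ± 0.28, 95% interval -0.60 to 0.57, adjusted p = 0.979).

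MPS1 read 6.88 and 6.66 in DMSO at 1 h and 6.66 and 5.43 in benomyl, a difference of -0.72 ± 0.30 that did not pass (adjusted p = 0.0519). It was -0.21 on the first scan day and -1.23 on the second. Without replicate 1 of benomyl it was -1.34, and without replicate 2 it was -0.11. It stayed short of the threshold in 10 of 15 other settings. It passed in the other 5, among them with the values as deposited (-0.82, adjusted p = 0.0249), with the stricter filter (adjusted p = 0.0476) and against filtered cells without DMSO (-0.88, adjusted p = 0.0193). Replicate number as a block also gave a call, while scan day as a block did not. At 4 h the arrays of each group lay close together, and MPS1 read 8.83 and 8.87 in DMSO and 7.58 and 7.66 in benomyl. The difference was -1.23 ± 0.30, 2.35-fold lower (adjusted p = 0.00387), with -1.25 and -1.21 on the 2 scan days, and it was called in all 15 other settings. The benomyl arrays at 4 h were still above the 6.76 and 6.69 of the cells before filtration. BUB1 differed by 0.18 ± 0.20 at 1 h (adjusted p = 0.46) and by -0.12 ± 0.20 at 4 h (adjusted p = 0.701).

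Among the Cdc20-binding partners, MAD3 was lower at both times. It read 5.60 and 5.48 in benomyl at 1 h against 6.14 and 6.05 in DMSO (-0.55 ± 0.16, adjusted p = 0.00877), and -0.53 and -0.57 on the 2 scan days. The call at 1 h was lost without replicate 1 of DMSO (-0.51) or replicate 2 of benomyl (-0.49). It was also lost with array weights (adjusted p = 0.198) and with only the groups compared. At 4 h it read 5.86 and 5.98 against 6.80 and 7.18, a difference of -1.07 ± 0.16, 2.09-fold lower (adjusted p = 5.53e-05), called in all 15 other settings. The MAD3 levels in benomyl at 4 h were just below those of DMSO at 1 h.

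BUB3 read 6.99 and 6.88 in benomyl at 1 h against 7.36 and 7.35 (-0.42 ± 0.18, adjusted p = 0.0594), and 7.51 and 7.47 at 4 h against 7.93 and 8.17 (-0.56 ± 0.18, adjusted p = 0.0235). The pairs did not overlap at either time. At 1 h BUB3 was called with the values as deposited (-0.57, adjusted p = 0.0171), and against filtered cells without DMSO it differed by -0.02 (adjusted p = 0.92). Replicate number as a block also gave a call at 1 h, while scan day as a block did not. The call at 4 h was lost without replicate 2 of DMSO (-0.44) and without replicate 1 (-0.58) or replicate 2 (-0.54) of benomyl.

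MAD2 went the other way at 1 h. It read 7.99 and 7.71 in benomyl and 7.57 and 7.28 in DMSO, so that both benomyl arrays were above both controls (0.43 ± 0.16, 1.35-fold, adjusted p = 0.032). The differences on the 2 scan days were 0.42 and 0.43. This call was lost in 6 of 15 other settings, among them without replicate 2 of DMSO (0.28, adjusted p = 0.253), without replicate 1 of benomyl (0.29, adjusted p = 0.192) and with the values as deposited. At 4 h MAD2 read 7.69 and 7.73 against 7.91 and 7.93 (-0.21 ± 0.16, adjusted p = 0.349). MAD1, its kinetochore platform, read 5.47 and 5.39 against 5.92 and 5.87 at 1 h (-0.47 ± 0.22, adjusted p = 0.085) and differed by 0.31 ± 0.22 at 4 h (adjusted p = 0.319).

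BUB2 read 6.52 and 5.97 in benomyl at 1 h and 7.07 and 7.01 in DMSO. The groups were apart, the replicate 2 array of benomyl was the lowest of all 26 for this gene, and the difference was -0.79 ± 0.16, 1.73-fold lower (adjusted p = 0.000535). Without that array it was -0.51, and on the 4 arrays alone the call was lost (adjusted p = 0.0815). At 4 h BUB2 read 6.99 and 6.83 against 6.59 and 6.63 (0.30 ± 0.16, adjusted p = 0.179).

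Within benomyl, 4 of the 8 genes rose from 1 h to 4 h and none fell, beside 49.5% of all probe sets called and 25.5% called higher. The rise was 1.57 ± 0.30 for MPS1 (adjusted p = 0.000295), 1.43 ± 0.28 for IPL1 (adjusted p = 0.000345), 0.66 ± 0.16 for BUB2 (adjusted p = 0.00256) and 0.56 ± 0.18 for BUB3 (adjusted p = 0.0159). The others ran from -0.14 for MAD2 to 0.46 for MAD1. With only the groups compared 0 genes were called. Without replicate 2 of benomyl at 1 h the rises were 0.95 for MPS1, 0.66 for IPL1, 0.38 for BUB2 and 0.50 for BUB3. The calls of BUB2 and BUB3 were then lost. Without replicate 1 the IPL1 rise was 2.21. The BUB3 call was also lost without replicate 1 (0.53) or replicate 2 (0.58) of benomyl at 4 h.

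**Figure D3:**
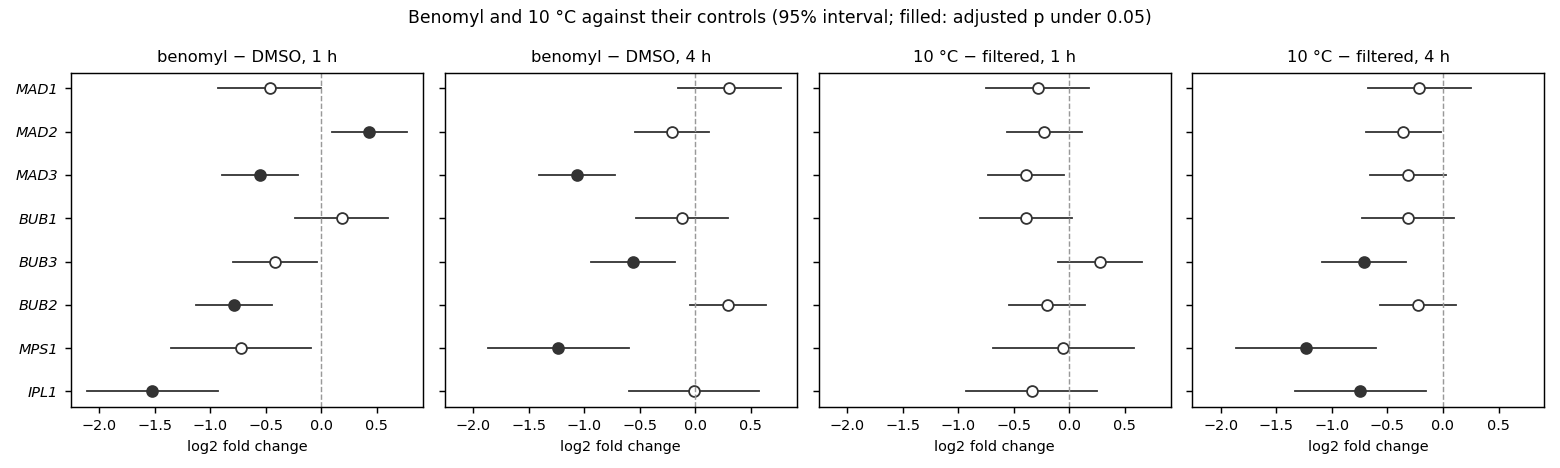
Log2 fold changes of the 8 genes for benomyl against DMSO and for 10 °C against filtered cells of the second set, each at 1 h and 4 h. Points are model estimates, lines 95% intervals, and filled points have an adjusted p under 0.05. IPL1 and BUB2 are lowest relative to DMSO after 1 h of benomyl, and MPS1 is lower by 1.23 after 4 h of benomyl and after 4 h at 10 °C.

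Cold was examined as another way of perturbing microtubules. After 1 h at 10 °C 0 of the 8 genes were called in limma, beside 20.1% of all probe sets, and 1 was below 0.05 unadjusted, MAD3 with -0.39 ± 0.16 (adjusted p = 0.104). The members ran from -0.39 for BUB1 to 0.28 for BUB3. The second set's filtered control at 1 h had unlike arrays, and without its replicate 1 MAD1 (-0.68, adjusted p = 0.0385) and MAD3 (-0.62, adjusted p = 0.0206) were called lower. After 4 h, 3 of the 8 genes were lower and none higher, beside 36.1% of all probe sets called and 16.8% called lower. All 8 had a negative value, with a median of -0.34 beside 0.03 for all probe sets.

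MPS1 read 6.23 and 6.06 at 10 °C after 4 h and 7.26 and 7.49 in the control. The cold arrays were near those of cold at 1 h (6.22 and 6.40) and of the cells before filtration (5.97 and 6.56), and the difference was -1.23 ± 0.30, 2.35-fold lower (adjusted p = 0.00353), called in all other settings. IPL1 read 6.78 and 6.82 against 7.51 and 7.57 (-0.75 ± 0.28, adjusted p = 0.0447). Its pairs were far apart, but the call was lost without replicate 1 (-0.73) or replicate 2 (-0.76) of cold and without replicate 1 (-0.78) or replicate 2 (-0.71) of the control. BUB1 differed by -0.31 ± 0.20 (adjusted p = 0.233).

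BUB3 read 6.65 and 6.84 at 10 °C after 4 h and 7.37 and 7.54 in the control (-0.71 ± 0.18, adjusted p = 0.00464). After 1 h in the cold it had read 7.44 and 7.38, and the step from 1 h to 4 h at 10 °C was -0.66 ± 0.18 (adjusted p = 0.0394). It was the only 1 of the 8 genes called in that step, beside 5.17% of all probe sets, and the others ran from -0.46 for IPL1 to 0.21 for MAD1. The 4 h difference was not called without replicate 1 of cold (-0.62, adjusted p = 0.0501) or replicate 2 of the control (-0.63, adjusted p = 0.0522). The step within cold was not called with any of its 4 arrays left out, at -0.75 to -0.57, or with the values as deposited. MAD2 (-0.36 ± 0.16, adjusted p = 0.0916), MAD3 (-0.31 ± 0.16, adjusted p = 0.144), BUB2 (-0.22 ± 0.16, adjusted p = 0.3) and MAD1 (-0.21 ± 0.22, adjusted p = 0.481) did not pass at 4 h.

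The effects were then compared directly. The benomyl effect differed between 4 h and 1 h for 3 of the 8 genes, beside 45.7% of all probe sets: BUB2 by 1.09 ± 0.23 (adjusted p = 0.000841), IPL1 by 1.51 ± 0.40 (adjusted p = 0.00455) and MAD2 by -0.64 ± 0.23 (adjusted p = 0.0278). The BUB2 difference was called in all other settings. The IPL1 difference was 0.74 without replicate 2 of benomyl at 1 h and 2.28 without replicate 1. Its call was lost with only the groups compared (adjusted p = 0.0866). For MAD2 the call was lost without replicate 2 of DMSO at 1 h (-0.49), without replicate 1 of benomyl at 1 h (-0.50), and without replicate 1 (-0.65) or replicate 2 (-0.63) of DMSO at 4 h or replicate 1 (-0.62) or replicate 2 (-0.66) of benomyl at 4 h. It was also lost with the values as deposited, under array weighting, and when the fit held only the groups compared. For MPS1 the benomyl effects of -0.72 and -1.23 differed by -0.51 ± 0.43 (adjusted p = 0.346), and without replicate 2 of benomyl at 1 h by -1.13. The cold effect differed between the times for 1 gene, beside 7.83% of all probe sets: BUB3 by -0.99 ± 0.25 (adjusted p = 0.0206). That call was lost without replicate 1 (-0.96) or replicate 2 (-1.02) of cold at 1 h, replicate 1 of cold at 4 h (-0.90) or replicate 2 of the control at 4 h (-0.91).

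Benomyl and cold belong to different array sets, whose filtered cells at 1 h differed in middle sporulation genes. At 4 h the benomyl and cold effects differed for 1 gene, beside 26.8% of all probe sets. MAD3 was lower by -0.75 ± 0.23 more under benomyl than under cold (adjusted p = 0.0214), a call lost without replicate 2 of DMSO (-0.56), replicate 1 of benomyl (-0.69), or replicate 2 of cold (-0.69) or of its control (-0.65). For MPS1 the 2 effects differed by -0.00 ± 0.43, with a 95% interval from -0.90 to 0.90 (adjusted p = 0.998). At 1 h they differed for 4 genes, beside 42.2%: IPL1 (-1.19 ± 0.40, adjusted p = 0.0221), BUB3 (-0.70 ± 0.25, adjusted p = 0.0351), BUB2 (-0.59 ± 0.23, adjusted p = 0.047) and MAD2 (0.65 ± 0.23, adjusted p = 0.0274). The IPL1 difference was -0.42 without replicate 2 of benomyl (adjusted p = 0.0667) and -1.96 without replicate 1. Its call was also lost without replicate 2 of DMSO (-1.15), replicate 2 of cold (-1.09) or replicate 1 of the control of cold (-1.06). The BUB2 difference was -0.31 without replicate 2 of benomyl and -0.36 without replicate 2 of the control of cold, and from -0.62 to -0.56, not called, without either array of DMSO or of cold. The MAD2 call was lost without replicate 2 of DMSO (0.51), replicate 1 of benomyl (0.51), replicate 1 of cold (0.55) or replicate 2 of its control (0.43). The BUB3 call was lost with any array but replicate 1 of benomyl left out, at -0.73 to -0.64. With only the groups compared none of these 4 differences was called, and with array weights IPL1 alone of them was.

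The order of levels over the 13 groups showed few clear steps. For MPS1, DMSO at 4 h stood first (mean 8.85), then benomyl at 4 h (7.62) and the second set's filtered cells at 4 h (7.38), each without overlap with the next. For MAD3, DMSO at 4 h (6.99) was followed without overlap by 4 h of sporulation (6.15), and acetate was last (5.10). For BUB3, DMSO at 4 h (8.05) was followed by benomyl at 4 h (7.49), then by 4 groups from 7.46 to 7.35 that did not separate, and glucose (6.01) and acetate (5.66) were last. For IPL1 the 7 groups from 7.59 to 7.41 overlapped each with its neighbour, below 4 h of sporulation (8.01) and above 10 °C at 1 h (7.26). MAD2 lay lower in the second set, whose 10 arrays ran from 6.76 to 7.34, than in the first, whose 16 ran from 7.28 to 7.99. Array set and culture cannot be told apart there. For MAD1 and BUB1 nearly all neighbouring groups overlapped.

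The likeness of the 8 patterns to each other is a description over 13 group means, which share arrays and the sporulation course. Over 28 pairs Pearson's r ran from -0.40 to 0.87, with a median of 0.24. The highest was MAD3 with MPS1 (0.87), followed by BUB3 with IPL1 (0.75) and BUB3 with MPS1 (0.70), and the lowest was BUB2 with BUB3 (-0.40). Without glucose and acetate MAD3 with MPS1 was 0.84, BUB3 with MPS1 0.76 and BUB3 with IPL1 0.24. BUB2 with IPL1 moved from -0.01 over 13 groups to 0.86 over the 11 sporulating groups. Among those 11, benomyl at 1 h had the lowest mean for both (BUB2 6.25, IPL1 6.01), and its 2 arrays lay far apart.

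**Figure D4:**
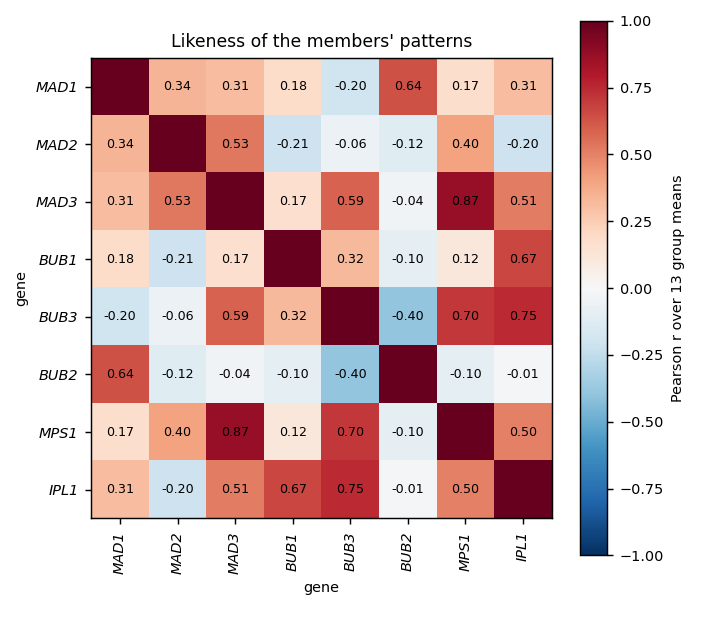
Pearson correlation of each pair of checkpoint genes over 13 group means. Both axes list the 8 genes and the colour scale runs from -1 to 1. MAD3 with MPS1 is the highest pair (0.87) and BUB2 with BUB3 the lowest (-0.40).

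Across 5463 other genes, those most like MPS1 over the 13 groups were SPC42, a core spindle pole body component (r = 0.988), CDC27, an APC/C subunit (0.987), and PNP1 (0.981). Most like IPL1 were KIN2 (0.980), HMG2 (0.978) and IOC2 (0.976). SPC98, of the gamma-tubulin complex (0.936), BRE2 (0.934) and the kinesin gene CIN8 (0.932) were most like MAD3. For BUB3 they were ATG8, the autophagy ubiquitin-like protein (0.943), SPC25, a kinetochore subunit (0.943), and ITR2 (0.941). For BUB2 they were RIP1 (0.925), DMO2 (0.922) and DUG1 (0.919), for MAD2 PCL6 (0.935), COX16 (0.914) and RPM2 (0.912), and for MAD1 JLP2 (0.906), CKB2 (0.895) and DDE1 (0.884). BUB1 had the weakest likenesses, to SHE1 (0.836), SCS22 (0.811) and AAC3 (0.793). Over the 26 arrays several of these genes ranked lower, among them AAC3 at place 170 (0.548), PCL6 at 115 (0.715), DUG1 at 59 (0.762), DDE1 at 23, CKB2 at 16 and IOC2 at 11, while the others were within the first 9. Over the 11 groups without glucose and acetate DMO2 stood at place 60 (0.888), SPC25 at 46 (0.814), RIP1 at 27 and RPM2 at 23. There IOC2 stood at 18 and SPC98 at 17, and the others were within the first 14.

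The genes that work beside the checkpoint were described from 5 lists with 56 genes, of which 52 were tested. NBL1, KRE28, NUF2 and SPC24 were not tested. Partner genes were tested in the main fit only, so their calls were not checked in other settings or with arrays left out. From acetate to 4 h of sporulation 37 of the 52 rose and 4 fell, beside 28.5% and 29.5% of all probe sets. From 1 h to 4 h in DMSO 29 rose and 9 fell (17.8% and 25.8% of all probe sets). Benomyl against DMSO gave 5 higher and 30 lower at 1 h (25.6% and 26.8%), and 4 higher and 32 lower at 4 h (16.6% and 15.9%). After 4 h at 10 °C 1 was higher and 31 were lower (19.4% and 16.8%).

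The APC/C is the target of the checkpoint. Of its 16 subunit and activator genes 14 rose from 1 h to 4 h in DMSO (median 2.20), beside 17.8% of all probe sets. After 1 h of benomyl 9 were lower and 1 higher (median -0.54), beside 26.8% and 25.6%. After 4 h of benomyl 14 were lower (median -1.43), beside 15.9%, and after 4 h at 10 °C 14 (median -1.41), beside 16.8%. The members' medians in those comparisons were 0.35, -0.51, -0.16 and -0.34. CDC20 read 8.65 and 8.12 in DMSO at 1 h and 11.3 and 11.2 at 4 h, a rise of 2.86 ± 0.22 (adjusted p = 6.81e-09). It was lower under benomyl by -0.92 ± 0.22 at 1 h (adjusted p = 0.00189) and -1.62 ± 0.22 at 4 h (adjusted p = 1.62e-05). At 1 h its benomyl arrays were unlike, at 7.05 and 7.88. After 4 h at 10 °C its difference was -0.41 ± 0.22 (adjusted p = 0.159). PDS1, the securin that the APC/C destroys, rose by 1.68 ± 0.20 in DMSO (adjusted p = 2.12e-06). It was lower by -0.59 ± 0.20 and -0.66 ± 0.20 under benomyl at 1 h and 4 h (adjusted p = 0.0203 and 0.0167), and by -1.80 ± 0.20 after 4 h at 10 °C (adjusted p = 1.45e-06). At 1 h PDS1 read 8.02 and 7.23 in benomyl and 8.32 and 8.10 in DMSO. CDC5, the polo kinase, was lower by -2.71 ± 0.30 after 1 h of benomyl (adjusted p = 6.35e-07) and by -3.39 ± 0.30 after 4 h at 10 °C (adjusted p = 8.94e-08). At 1 h CDC5 read 7.06 and 6.03 in benomyl and 9.74 and 8.77 in DMSO, so both pairs were wide. At 4 h the groups were closer, with 9.53 and 9.97 in benomyl and 10.86 and 10.96 in DMSO.

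The partners of Ipl1 in the chromosomal passenger complex and in tension sensing were tested for 8 of 9 genes. SLI15, which encodes the activator and scaffold of Ipl1, rose by 2.44 ± 0.30 from acetate to 4 h of sporulation (adjusted p = 1.52e-06), beside the 2.45 of IPL1. After 1 h of benomyl it read 7.14 and 5.50 against 8.07 and 8.08 in DMSO (-1.75 ± 0.30, adjusted p = 8.09e-05), again with replicate 2 far below replicate 1. At 4 h its difference was 0.30 ± 0.30 (adjusted p = 0.481). SGO1, shugoshin, was lower at both times, by -2.06 ± 0.19 (adjusted p = 7.56e-08) and -1.28 ± 0.19 (adjusted p = 5.04e-05). It read 7.02 and 7.27 after 4 h at 10 °C against 9.06 and 9.16 in the control (-1.97 ± 0.19, adjusted p = 3e-07), and SLI15 was lower there too (-1.12 ± 0.30, adjusted p = 0.00617).

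In the Bub2 branch, BFA1 read 5.49 and 5.26 after 1 h of benomyl and 5.76 and 5.87 in DMSO, near the filter's level of 5.44. BFA1 was lower by -0.44 ± 0.15 after 1 h of benomyl (adjusted p = 0.0171), beside the -0.79 of BUB2, and differed by -0.06 ± 0.15 at 4 h (adjusted p = 0.811). TEM1, the GTPase that both restrain, was lower by -1.18 ± 0.15 at 1 h (adjusted p = 2.59e-06). Of the 11 genes of the branch and the exit network 2 were higher and 6 lower at 1 h, beside 25.6% and 26.8% of all probe sets, and 7 were lower at 4 h, beside 15.9%. At the kinetochore SPC105, the scaffold that binds the Bub proteins, rose by 1.49 ± 0.18 from acetate to 4 h of sporulation (adjusted p = 1.7e-06). It differed by -0.38 ± 0.18 after 1 h of benomyl (adjusted p = 0.0862), and was lower by -0.92 ± 0.18 after 1 h at 10 °C (adjusted p = 0.00143), when none of the checkpoint genes was called.

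Markers of the sporulation stage moved in the same comparisons. Of all probe sets 26.8% were lower and 25.6% higher after 1 h of benomyl, 15.9% lower and 16.6% higher after 4 h, 8.35% lower after 1 h at 10 °C, and 16.8% lower and 19.4% higher after 4 h. The 12 middle sporulation genes were all lower after 1 h of benomyl (median -1.35), 10 of 12 after 4 h (median -1.27), and all 12 after 4 h at 10 °C (median -2.61), while 1 of 12 was called, as lower, after 1 h at 10 °C. The 6 early genes were all lower after 1 h of benomyl (median -1.69), and after 4 h 2 were higher and 1 lower. At 10 °C 2 of the 6 early genes were lower after 1 h (median -0.58) and 5 after 4 h (median -1.08). Of 6 spore wall genes 5 were lower and 1 higher after 4 h of benomyl, and 3 were lower after 4 h at 10 °C. Of 9 tested genes of haploid mating, 1 was higher and 1 lower after 1 h of benomyl, 1 lower after 4 h, and 1 higher and 2 lower after 4 h at 10 °C. Their part in the checkpoint genes' differences was not tested.

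**Figure D5:**
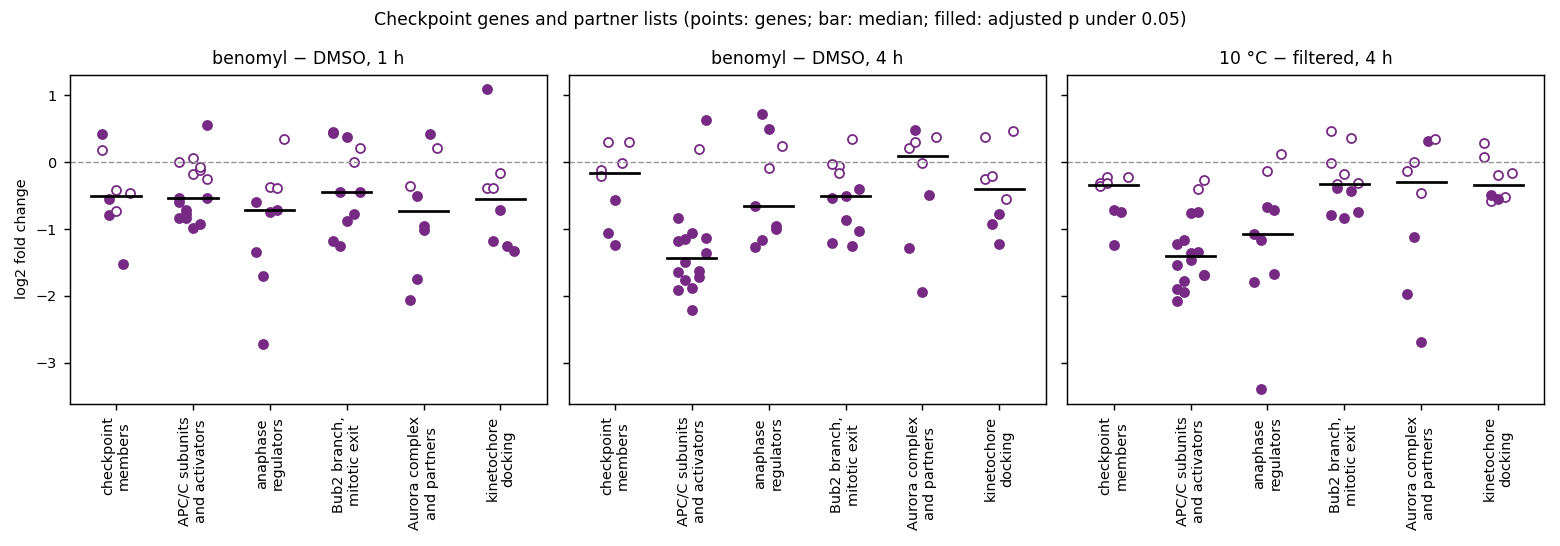
Log2 fold changes of the 8 checkpoint genes and of 5 lists of partner genes for benomyl against DMSO at 1 h and 4 h and for 10 °C against filtered cells at 4 h. Points are genes, filled where the adjusted p is under 0.05, and bars are list medians. The APC/C list has 14 of 16 genes lower in both 4 h comparisons, against 3 of 8 checkpoint genes, beside 15.9% (benomyl) and 16.8% (10 °C) of all probe sets.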

How the data were processed

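Transcript levels were measured on 26 arrays. The authors deposited log2 values for 9335 probe sets. The method that made them is not given in the sources used here, and the base of the logarithm was inferred from the values (2.09 to 15.1). For 16 arrays, per the file headers, a deposited instrument text file of the "other" kind holds settings and no expression, and only its scan day was used.

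Quantile normalization between arrays came first. Probe sets were tested if they were no controls (60) and had a group mean above the 25th percentile of all values, which removed 1399 and left 7876. Gene names are those of the probe annotation, updated through the assembly table (6504 probe sets with 1 gene, 328 with several, 2443 with none). A model with 13 group means was fitted with limma 3.58.1 in R 4.3.3 with a variance trend (13 residual degrees of freedom), p-values were adjusted by Benjamini-Hochberg, and differences of effects were contrasts of contrasts. The number of arrays limits the precision. The fit was also run on simulated data, for benomyl against DMSO at 4 h only, with the same spread in every group for each probe set. It therefore does not cover the unlike arrays of benomyl at 1 h and of the second set's filtered cells at 1 h.

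Genes and lists were chosen with earlier results of these data known. The naming rule covers all 8 genes in every comparison. Those not named in one are given there by their range. From each list up to 4 called genes with the smallest adjusted p may be named, plus CDC20, PDS1, SLI15, BFA1, SPC105 and SGO1, and for each checkpoint gene the 3 most like it. Promoter and protein sequences were not used here. Alternatives were values as deposited, median centring, other filters, no variance trend, array weights, only the groups compared, replicate or scan day as a block, other controls and each array left out. A fit without the arrays of benomyl at 1 h and the second set's filtered cells at 1 h, and the comparison of both courses, were chosen after seeing the data.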

Additional observations from a re-analysis of the deposited data

Results flagged for a closer look

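Differences between effects under the same contrast passed their own limma test for 10 gene and contrast pairs. Groups of 2 arrays are too small for a test of single outlying arrays.

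From 1 h to 4 h the benomyl effect changed by 1.09 for BUB2 (adjusted p = 0.000841), by 1.51 for IPL1 (adjusted p = 0.00455) and by -0.64 for MAD2 (adjusted p = 0.0278). The cold effect changed by -0.99 for BUB3 (adjusted p = 0.0206).

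At 1 h the benomyl effect minus the cold effect was 0.65 for MAD2 (adjusted p = 0.0274), -0.59 for BUB2 (adjusted p = 0.047), -0.70 for BUB3 (adjusted p = 0.0351) and -1.19 for IPL1 (adjusted p = 0.0221). At 4 h it was -0.75 for MAD3 (adjusted p = 0.0214). Benomyl and cold belong to different array sets, so treatment and set cannot be told apart in these values.

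The course in DMSO minus the course in the second set was 0.90 for MAD3 (adjusted p = 0.0143), a comparison chosen after seeing the data.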

How the results depend on the processing

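For the single genes over the main comparisons and differences, 2086 recomputed values gave 1920 on the same side of the threshold, 110 that lost a call, 56 that gained one and none that reversed. Among the 2086, 81 changed sign, all of them values that were not called.

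The number of the 8 genes called moved as follows. With array weights it became 2 for benomyl against DMSO at 1 h, 2 for benomyl at 4 h against 1 h, 5 for cold at 4 h, 2 for the step within cold, 1 for filtration in the first set and 0 for the second set's course, and the differences of effects gave 2 for cold at 4 h against 1 h, 1 for benomyl against cold at 1 h and 3 at 4 h. With only the groups compared it became 0 for benomyl at 1 h, 0 for benomyl at 4 h against 1 h, 5 for benomyl at 4 h, 2 for the step within cold, 1 for filtration in the first set, 0 for the second set's course, and 2, 0 and 3 for the same differences. Values as deposited gave 1 for cold at 1 h and 0 for the step within cold. First-set controls gave 3 for cold at 1 h. Median centring gave 0 for the second set's course and 5 for the benomyl effect at 4 h against 1 h, and no filter gave 0 for the second set's course. Scan day as a block gave 1 for acetate against glucose. Without the unlike 1 h arrays, an alternative added after seeing the data, the counts were 2 for the step within cold, 1 for filtration in the first set and 3 for benomyl against cold at 4 h.

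With 1 array left out, a lone array being assumed to vary like the other groups, the counts ran from 2 to 4 for the course in DMSO, 3 to 4 for benomyl at 1 h, 2 to 3 for benomyl at 4 h, 2 to 4 for benomyl at 4 h against 1 h, 4 to 5 for sporulation against acetate, 0 to 2 for acetate against glucose, 0 to 2 for cold at 1 h, 1 to 2 for cold at 4 h, 0 to 0 for the step within cold, 0 to 1 for the second set's course and 0 for filtration and DMSO. For the differences they ran from 2 to 4 for benomyl over time, 0 to 2 for cold over time, 0 to 4 for benomyl against cold at 1 h and 0 to 1 at 4 h.

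The main fit did not pair arrays by replicate number. Correlations of deviations ran from -0.155 to 0.309 over 28 pairs of the first set and from -0.289 to 0.391 over 10 of the second. These values do not show that the arrays were unpaired. In the first set, outside glucose medium, each replicate number also fell on 1 scan day. With the replicate block the counts were 6 for benomyl at 1 h, where MPS1 and BUB3 were also called, 2 for cold at 4 h and 4 for benomyl over time. MAD1 and BUB1 did not pass the stricter filter. Using every probe set of a gene changes nothing, since each gene had 1. The search for promoter motifs was not run.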
